A study of Oryza sativa Japonica Group with 4 samples.

Results

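*NSHB1* and *NSHB2*, which encode non-symbiotic hemoglobins, and *Adh2* and *PDC2*, which encode enzymes of ethanol fermentation, were examined in rice roots after a short supply of ammonium nitrate. The 4 genes, of 17905 with a probe set of their own, were found by symbol or synonym in a gene table and are read by 7 of the 57194 rice probe sets of the Affymetrix Rice Genome Array. *NSHB1* has 3 probe sets, *NSHB2* has 1, *Adh2* has 1 and *PDC2* has 2. Seedlings of the japonica cultivar TNG67, 17 days old, were raised hydroponically without N in both groups. The control group stayed without N (−N), and the treated group received 1.43 mM ammonium nitrate (+N), both for 30 min before the roots were taken. Each group has 2 biological replicates and each replicate has 1 array. The labels do not say whether the replicates were separate cultures, so the p-values cover only the spread among these 4 arrays. The array reports whole roots, in which fewer cells of a type and less RNA per cell cannot be told apart.

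Non-symbiotic hemoglobins are plant proteins that bind oxygen very tightly. They are known for turning nitric oxide into nitrate, and their genes are known to respond to nitrate, nitrite and low oxygen in several plants. Pyruvate decarboxylase converts pyruvate to acetaldehyde, and alcohol dehydrogenase reduces acetaldehyde to ethanol with NADH. This pair of reactions regenerates NAD+ for glycolysis when respiration lacks oxygen, and rice is known for its strong fermentation under flooding. In this setting the hemoglobin genes and the fermentation genes are often discussed together, because both belong to the low-oxygen response.

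The hemoglobin probe sets were higher in +N roots, and no difference was detected for the fermentation genes. All 4 hemoglobin probe sets were higher on both +N arrays than on either −N array, and 2 of them, both of *NSHB1*, rose about 4-fold. The 3 probe sets of *Adh2* and *PDC2* had overlapping groups, with ratios of +N to −N between 0.966 and 1.02. The study's methods give cutoffs of 2-fold and p under 0.05, without saying whether p was adjusted. Here a probe set is said to have risen or fallen when it changed at least 2-fold with an unadjusted p under 0.05 in limma. Of all rice probe sets 0.465% rose and 0.014% fell by this definition. With each array centred on its median 333 rose and 18 fell, and with quantile normalization 266 and 14. The balance shifted toward falls when a −N array was left out, with or without centring. A smaller shift toward falls occurred in some of the fits without a +N array. Without centring, such a fit sets arrays of unlike scale against each other. The +N values lay above the −N values without overlap in 7.61% and below them in 7.05%. Of all rice probe sets 21.8% were higher in +N within each replicate number. For the 4 hemoglobin probe sets this follows from their lack of overlap and is no further result. The 3 probe sets of *NSHB1* share a target and are not separate observations. After Benjamini-Hochberg adjustment over all probe sets in limma, 0 of the 7 and 0 of 57194 passed, while 694 of 57194, or 1.21%, had an unadjusted p under 0.05. Over all probe sets, 18 passed the adjustment with dim probe sets left out, and 1 with the variance of each probe set taken alone, with 0 of the 7 among them. The dimmest probe set of *NSHB1* and that of *NSHB2* were themselves left out as dim, so they were not tested in that fit. With 2 arrays in each group, the smallest two-sided p of an exact permutation test is 0.333.

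**Figure D1:**
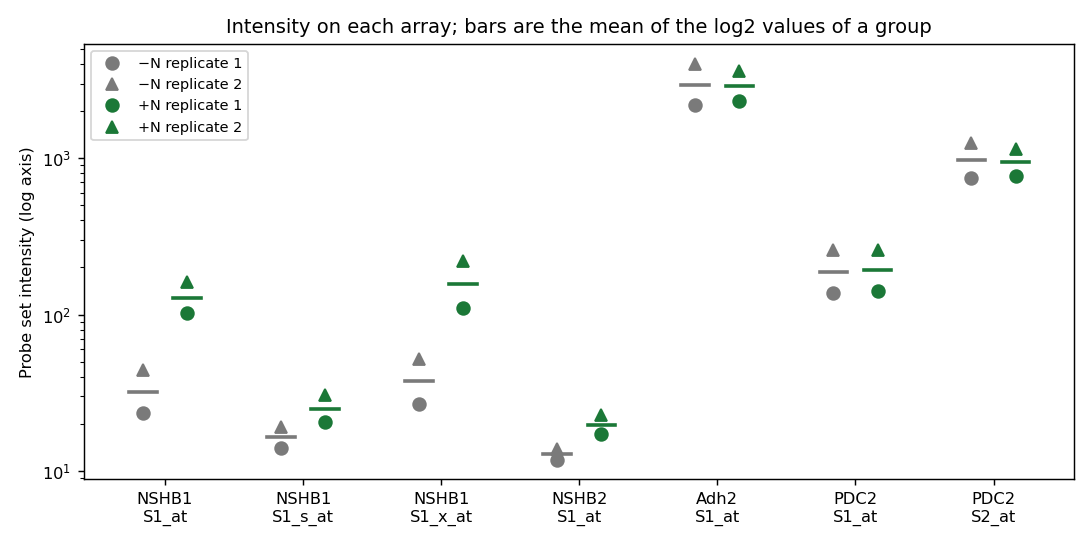
Intensity of each probe set (log axis) on each of the 4 arrays, −N in grey and +N in green, with circles for replicate 1, triangles for replicate 2 and bars for the mean of the log2 values of a group. The +N points of *NSHB1* and *NSHB2* lie above both −N points, and those of *Adh2* and *PDC2* lie at the same heights as the −N points of the same replicate number.

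The arrays differ in scale by replicate number. The median intensity over rice probe sets was 17.8 and 25.2 on the −N arrays of replicates 1 and 2, and 17.1 and 25.4 on the +N arrays. The values were used as deposited, so part of the spread within a group is this shared scale. As a check of the tissue, the probe set of *LSI1*, a silicon influx transporter gene of roots, was bright on all arrays, between 7224 and 9869. The other root markers were less even. *LSI6* had 377 and 1217 in −N and 398 and 496 in +N roots, and *LSI2* had 596 and 1486 in −N and 768 and 721 in +N roots. *SCR1* was dimmer than the median on every array, with 13.4 and 16.2 in −N and 10.9 and 12.3 in +N roots, where +N was lower without overlap. *CAB2R*, a chlorophyll-binding protein gene of green tissue, was also bright, between 7870 and 11216. The small subunit gene of Rubisco, *RBCS*, had 304 and 1303 in −N and 878 and 873 in +N roots, and another, *RBCS1*, lay between 3.97 and 5.49. Of 4 measured leaf markers and 6 root markers, 0 rose and 0 fell in limma, with medians of the log2 ratio of 0.30 and -0.18. The markers given here were picked from those lists with their values known. The part of leaf-type transcripts in the results below was not tested.

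*NSHB1* is the hemoglobin gene that rose. Its probe set Os.12191.1.S1_at, whose suffix marks a set designed to read a single transcript, had −N intensities of 23.3 in replicate 1 and 44.0 in replicate 2, and +N intensities of 102 and 161. Both +N values were more than the higher −N value, and the replicate 2 array was the brighter of each group. The log2 ratio, the difference between the group means of log2 values in limma, was 2.00 (SE 0.46, unadjusted p = 0.0173 in limma), a ratio of 4.01 with a 95% interval from 1.55 to 10.4. Between arrays of the same replicate number the ratio was 4.37 for replicate 1 and 3.67 for replicate 2.

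A similar change was measured by the *NSHB1* probe set Os.12191.1.S1_x_at, whose suffix warns that some of its probes can bind other sequences. It had 26.7 and 52.3 on the −N arrays and 110 and 221 on the +N arrays. Again the groups did not overlap. The log2 ratio was 2.06 (SE 0.56, unadjusted p = 0.0280 in limma), and the ratio within a replicate number was 4.12 and 4.22. The 95% interval of the ratio, from 1.32 to 13.2, was wide, and the ratios of the 2 replicate numbers within it were nearly the same.

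The probe set Os.12191.1.S1_s_at of the same gene, whose suffix marks probes shared by several transcripts, gave a smaller difference. It had 14.0 and 19.1 in −N and 20.5 and 30.6 in +N roots. These groups did not overlap either, but the gap between 19.1 and 20.5 was small beside the spread within each group. These 2 values come from arrays of different replicate numbers and unlike scale. Within a replicate number the ratio of this probe set was 1.46 and 1.60. Its log2 ratio was 0.61 (SE 0.31, unadjusted p = 0.137 in limma), and it did not pass. The 3 probe sets of *NSHB1* therefore disagree in size, and which transcripts the dimmer one reads was not tested. *NSHB3* and *NSHB4*, other members of the hemoglobin family, lie directly beside *NSHB1* on chromosome 3 in the gene table, with 0 genes between *NSHB1* and *NSHB3* and 0 between *NSHB3* and *NSHB4*. The annotation pairs no probe set with either of them.

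The size of the *NSHB1* change held better than its call. When an array was left out the log2 ratio of the S1_at set ranged from 1.54 to 2.46 and that of the S1_x_at set from 1.56 to 2.56. Both calls ended in limma without the replicate 2 array of +N, with unadjusted p of 0.0824 and 0.103. They also ended with the variance of each probe set taken alone, with unadjusted p of 0.0712 and 0.0980. That of S1_x_at also ended without the −N array of replicate 1 (unadjusted p = 0.0932 in limma).

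*NSHB2* had a smaller difference at a low signal. Its probe set Os.12163.1.S1_at had 11.8 and 13.8 in −N and 17.1 and 22.7 in +N roots. The +N values were above both −N values, but on each of the 4 arrays the probe set was dimmer than the array's median. The file holds no detection call, so whether it is above background is unknown. The log2 ratio was 0.62 (SE 0.23, unadjusted p = 0.0630 in limma), a ratio of 1.54 with a 95% interval from 0.960 to 2.47. It was 1.45 for replicate 1 and 1.64 for replicate 2. *NSHB2* did not pass the test. The difference in log2 ratio between *NSHB1* and *NSHB2* was not tested. *NSHB2* lies on chromosome 3 as well, with 50 genes between it and *NSHB1* in the gene table.

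**Figure D2:**
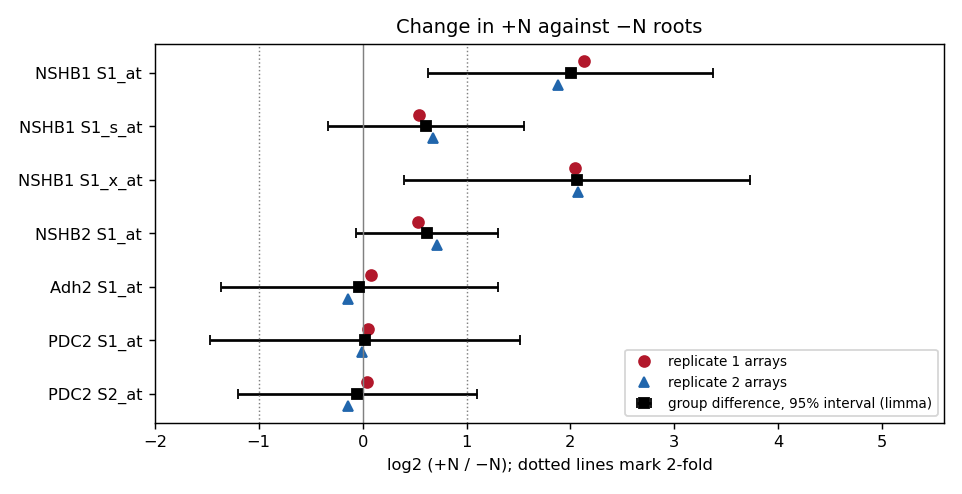
Log2 ratio of +N to −N (horizontal axis) for each probe set: black squares with bars are the limma estimate and its 95% interval, red circles the ratio between replicate 1 arrays and blue triangles that between replicate 2 arrays. The intervals of S1_at and S1_x_at of *NSHB1* lie above 0, those of the other 5 probe sets include 0, and the ratios of each replicate number lie much closer together than the intervals are wide.

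The fermentation genes were measured at a high signal and showed no detectable difference. *Adh2*, one of the alcohol dehydrogenase genes, is read by Os.8815.1.S1_at. Its −N intensities were 2178 in replicate 1 and 4015 in replicate 2, and its +N intensities were 2305 and 3632. The +N values both lay between the −N values. The log2 ratio was -0.03 (SE 0.45, unadjusted p = 0.948 in limma), and the ratio was 1.06 for replicate 1 and 0.904 for replicate 2. The 95% interval of the ratio ran from 0.387 to 2.47, so that in this fit a 2-fold change in either direction is inside it. With each array centred on its median, the interval of the log2 ratio was -0.58 to 0.57, short of 2-fold. With the variance of the probe set taken alone it was -2.40 to 2.33. *ADH1*, the other alcohol dehydrogenase gene found in the table, is on chromosome 11 like *Adh2*, with 3 genes between them, and is paired with no probe set.

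*PDC2* encodes a pyruvate decarboxylase, the enzyme before alcohol dehydrogenase in the pathway. Its brighter probe set Os.10803.1.S2_at had 751 and 1257 in −N and 773 and 1141 in +N roots. The other, Os.10803.1.S1_at, had 137 and 258 in −N and 142 and 257 in +N roots. In both, each +N array matched the −N array of its own replicate number closely, and the arrays of replicate 2 were the brighter ones. The log2 ratios were -0.05 (SE 0.39, unadjusted p = 0.905 in limma) and 0.02 (SE 0.50, unadjusted p = 0.965). The 95% intervals of the ratio were 0.434 to 2.15 and 0.360 to 2.87, so in this fit these also include a 2-fold change. With each array centred on its median, the intervals of the log2 ratio were -0.55 to 0.49 and -0.58 to 0.67, short of 2-fold. With the variance of each probe set taken alone they were wider, -2.05 to 1.96 and -2.65 to 2.70. Both probe sets of *PDC2* thus gave a ratio near 1.

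For the fermentation genes the ratio between replicate numbers can be set beside the ratio between treatments. Replicate 2 over replicate 1 was 1.84 in −N and 1.58 in +N roots for *Adh2*. For *PDC2* it was 1.67 and 1.48 with S2_at, and 1.88 and 1.80 with S1_at. Each of these was larger than any ratio between treatments of the same genes. Over all rice probe sets the median of this ratio was 1.28 in −N and 1.29 in +N roots. After each array was centred on its median the ratios were 1.30 and 1.06 for *Adh2*, 1.18 and 0.994 for S2_at of *PDC2* and 1.32 and 1.21 for S1_at. Each of these ratios was closer to 1 after centring than before it. The S1_at set of *NSHB1* had ratios of 1.89 and 1.58, in the same range, but its ratio between treatments was larger than either.

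The other pyruvate decarboxylase genes did not pass the test either. *PDC1* had 35.9 and 76.6 in −N and 52.4 and 93.1 in +N roots, with overlapping groups and a log2 ratio of 0.41 (SE 0.55, unadjusted p = 0.499 in limma). Between arrays of the same replicate number its log2 ratio was 0.55 for replicate 1 and 0.28 for replicate 2. *PDC3*, at a low signal, had 15.6 and 25.9 in −N and 13.4 and 24.2 in +N roots, with a log2 ratio of -0.16 (SE 0.45, unadjusted p = 0.747). For *PDC3* the log2 ratio was -0.22 for replicate 1 and -0.10 for replicate 2. Of the 4 measured genes of ethanol fermentation, 0 rose and 0 fell, with a median log2 ratio of -0.04. Over all 17905 genes, each read by its brightest probe set, the median was 0.02, and 180 rose and 4 fell. Of the 2 measured hemoglobin genes 1 rose and 0 fell. That is too few genes for a median to describe.

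Genes that supply sugar to fermentation or carry it through glycolysis were likewise not called. Of 30 measured genes of this list 0 rose and 0 fell in limma, with a median log2 ratio of 0.03 and a range from -0.62 to 1.17. Over all 17905 genes 1.01% rose, so a count of 0 among 30 is near that share. The groups did not overlap in 4 of the 30 with +N higher and in 1 with +N lower. Over all rice probe sets these shares were 7.61% and 7.05%. The sucrose synthase gene *SUS1*, whose enzyme cleaves sucrose for glycolysis, had 770 and 1742 in −N and 835 and 1318 in +N roots. The highest value was that of *AMY3D*, an α-amylase gene known for its induction by sugar starvation. It had 17.1 and 44.3 in −N and 45.2 and 85.2 in +N roots, so that the groups were close to meeting, and its log2 ratio was 1.17 (SE 0.65, unadjusted p = 0.160). *TPP1*, a trehalose-6-phosphate phosphatase gene, had 192 and 406 in −N and 493 and 573 in +N roots. Its log2 ratio was 0.93 (SE 0.45, unadjusted p = 0.120). *SUS1*, *AMY3D* and *TPP1* were chosen after their values were seen.

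Regulators linked to low oxygen and energy shortage were also near 0. Of 6 measured genes 0 rose and 0 fell, and their log2 ratios lay between -0.05 and 0.28. With 1.01% of all genes rising, a count of 0 among 6 is near that share. The 6 include *SNRK1A*, which encodes a kinase subunit of the sugar starvation response, with 479 and 793 in −N and 629 and 887 in +N roots. They also include *MYBS1*, which encodes an activator of α-amylase genes, with 117 and 145 in −N and 139 and 134 in +N roots. The groups of both overlapped, and both were picked with their values known. *CIPK15*, a kinase gene that links low oxygen to this pathway in rice, is paired with no probe set of its own. The annotation gives a probe set to *CIPK14*. The study's methods call the cDNAs of *CIPK14* and *CIPK15* very similar and say that its qRT-PCR primers could not separate them. The study also lists its array value jointly for both genes. This probe set may therefore read either or both. It had 94.8 and 166 in −N and 577 and 801 in +N roots and rose, with a log2 ratio of 2.44 (unadjusted p = 0.00567 in limma). It is not among the 6 genes counted above and was picked with its value known.

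The list of nitrate reduction and nitric oxide held 12 names, which yielded 2 measured genes, and 1 of these rose. Over all genes 1.01% rose, and 2 genes are too few to stand for the list. The nitrite reductase gene that the study reports as induced is not among them. *NIA1* encodes nitrate reductase, which makes nitrite and can also give rise to nitric oxide. It had 60.5 and 159 in −N and 907 and 888 in +N roots, with a log2 ratio of 3.19 (SE 0.56, unadjusted p = 0.00764 in limma). *AOX1A*, chosen after its value was seen, encodes the alternative oxidase of mitochondria, an electron acceptor that bypasses part of the respiratory chain. It had 457 and 451 in −N and 902 and 876 in +N roots, so the groups were far apart beside their spread. Its ratio of 1.96 stayed just short of 2-fold (log2 ratio 0.97, SE 0.14, unadjusted p = 0.00421). Of 9 measured reference genes 0 rose and 0 fell, and their log2 ratios ranged from -0.39 to 0.14.

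**Figure D3:**
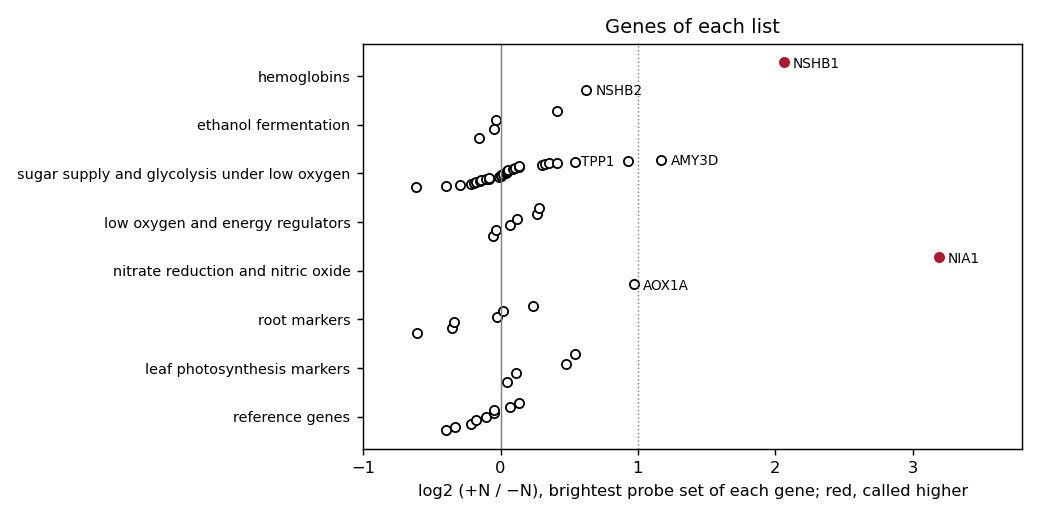
Log2 ratio of +N to −N (horizontal axis) of each measured gene, by its brightest probe set, for each list of genes; red points rose and open points did not pass. *NSHB1* and *NIA1* are the red points, *AOX1A* lies just left of the dotted 2-fold line, and the genes of ethanol fermentation lie between -0.16 and 0.41.

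The genes most like each member were sought among 69 genes with a symbol of their own and a signal at or above the median, by the distance over the 4 arrays between log2 profiles centred on their means. For *PDC2* the nearest were *AIP1* at a distance of 0.05, *DCD1* at 0.09 and *FBA1* at 0.09. For *Adh2* they were *FBA1* at 0.13, *PP2C53* at 0.14 and *AIP1* at 0.14. *FBA1* encodes fructose-bisphosphate aldolase, an enzyme of glycolysis, and had 2836 and 4995 in −N and 3178 and 4484 in +N roots, bright on the replicate 2 arrays in both groups. For *NSHB2*, itself below the median signal, they were *GATA15* at 0.31, *BZIP39* at 0.34 and *CPK13* at 0.35. For *NSHB1*, by its S1_x_at set, none of the 69 was near, with *GATA15* at 1.55, *GA20OX3* at 1.66 and *CSB* at 1.72. *GATA15* had a log2 ratio of 0.79 against 2.06. Genes nearer to *NSHB1* were found by a wider search that also used synonyms, given below. The 4 arrays share 2 scales by replicate number, and likeness by this measure includes the shared scale.

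**Figure D4:**
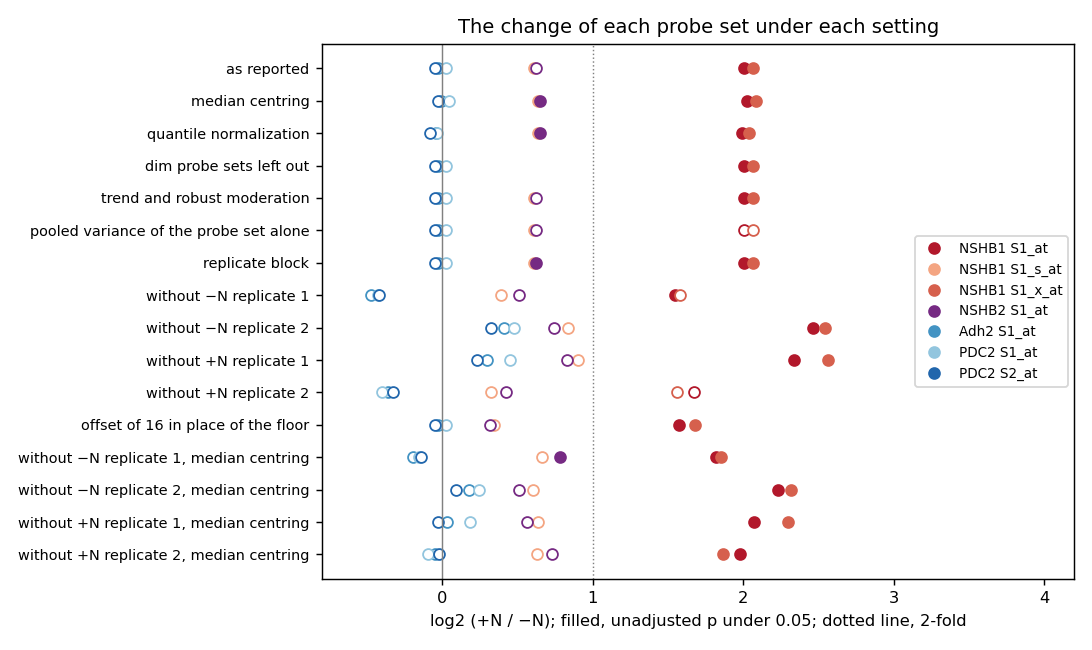
Log2 ratio of +N to −N (horizontal axis) of each probe set under each way of processing the values, filled where the unadjusted p was under 0.05 and open where it was not. S1_at and S1_x_at of *NSHB1* stay between 1.54 and 2.56 throughout, those of *Adh2* and *PDC2* lie on both sides of 0, and S1_s_at of *NSHB1* and *NSHB2* lie between 0.31 and 0.90.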

How the data were processed

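The authors hybridized biotin-labelled root RNA to 4 Affymetrix Rice Genome Arrays and deposited a linear intensity for every probe set and array. GCOS and RMA are named in the submitters' processing notes, with no version or role. How the arrays were scaled to each other is not stated there. Of 57381 probe sets, 187 controls were left out. Values under the 5th percentile, an intensity of 5.16, were set to it, and 0 values of the 7 probe sets were below it. Log2 values were fitted with limma 3.58.1 (R 4.3.3) with group as the only term over 57194 probe sets. The fitting was tried on simulated data with known changes, drawn with independent noise of equal spread and no scale shared by replicate number. Such data cannot show whether the model suits these arrays. Single genes were named through the platform annotation (22436 probe sets with 1 gene, 95 with several, 34663 with none) and the RefSeq genes of ASM3414082v1, consulted for names and neighbouring genes. All 17905 genes were found in it. Other genes are shown by their brightest probe set. Lists were matched by symbol or synonym, and genes sharing a synonym with an unrelated gene were removed. Named are all probe sets of the 4 genes, every measured gene of hemoglobins and fermentation, each called gene of the other lists, and the 3 genes most like each member. Further genes of the lists and tissue markers are named with their values known. The genes and lists were chosen with earlier results of these data known. Intensities of different probe sets are not comparable as levels. Other settings tried were quantile normalization, median centring, leaving out dim probe sets, other variance models, the replicate number as a block, each array left out, other fold thresholds and an offset of 16. Promoter motifs, which the design listed, were not analysed here. Precision is limited by the number of arrays. Plots were made in matplotlib 3.10.9.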

Additional observations from a re-analysis of the deposited data

How the results depend on the processing

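Of the 7 probe sets, 2 rose and 0 fell, and this count was 2 with median centring, quantile normalization, dim probe sets left out, trend and robust moderation, an offset of 16, fold thresholds of 1.5 and 3 and the replicate block. It was 0 with the variance of the probe set alone and ranged from 0 to 2 when an array was left out. A fit without an array sets arrays of unlike scale against each other and takes the lone array of a group to vary like the others. With median centring as well, chosen after seeing the data, it was 2 in each such fit. Over all rice probe sets 274 were called, against 171 with the variance of the probe set alone, 573 at 1.5-fold and 110 at 3-fold. Leaving out an array gave from 194 to 772, and from 318 to 1161 with median centring, where dropping replicate 2 of +N gave 478 and dropping replicate 2 of −N gave 877. The number 0 of falls among the 7 held in every fit. The cause of these changes was not tested.

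Samples of the same replicate number deviated together (correlation 0.56 across probe sets, or 0.54 after centring). With 2 pairs and no label of a shared culture, the source of this is unknown and was not tested. With the replicate block 309 probe sets were called in place of 274, and 2 of the 7. The unadjusted p in limma was 0.00135 for S1_at and 0.000581 for S1_x_at of *NSHB1*, 0.0136 for S1_s_at and 0.0156 for *NSHB2*, the last pair short of 2-fold. For *Adh2* the 95% interval of the log2 ratio was then -0.44 to 0.37. Among the 7 probe sets no call changed.

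*Adh2* turned sign in 4 of 15 alternatives and the probe sets of *PDC2* in 5 and 3 of 15, with 0 called in any of them. S1_s_at of *NSHB1* and *NSHB2* kept their sign in 14 of 14. The dim-probe filter left both out.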

Other observations

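When genes were also named by a synonym, a wider search chosen after the values were seen, 2083 genes at or above the median signal could be compared with each member over the 4 arrays. The nearest to *NSHB1* was *CIPK14*, which encodes a CBL-interacting protein kinase, at a distance of 0.54. It had 94.8 and 166 in −N and 577 and 801 in +N roots, with a log2 ratio of 2.44. Whether this probe set also reads *CIPK15* was not tested. Next were *G6PGH2* at 0.56, a gene of the pentose phosphate pathway also named *6PGDH2*, and *DAO* at 0.68, which encodes an enzyme of auxin inactivation, with log2 ratios of 2.08 and 1.64.

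The nearest to *NSHB2* were *OsZIP1* at 0.04, which encodes a metal transporter, and *GRXS9* at 0.05, which encodes a glutaredoxin. *OsZIP1* had 39.5 and 46.1 in −N and 55.0 and 75.4 in +N roots. *GRXS9* had 622 and 743 in −N and 882 and 1160 in +N roots. Neither passed the test, with log2 ratios of 0.59 and 0.57. For *Adh2* the nearest was *cpdk*, also named *PPDKB*, at 0.02, a pyruvate orthophosphate dikinase gene, with 153 and 282 in −N and 163 and 259 in +N roots.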
